A study of Mus musculus with 6 samples.

Results

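The N-terminal acetyltransferase subunits are the 10 genes Naa10, Naa15, Naa20, Naa25, Naa30, Naa35, Naa38, Naa40, Naa50 and Naa60, taken by gene name from the deposited translatome of the medial prefrontal cortex (mPFC), from its D2 neurons. They are 10 of the 47729 genes and hold 77 of the 115220 transcripts in the table. All 10 genes and 30 of the 77 transcripts had a mean of at least 1 FPKM over the 6 libraries and entered the tests, and 69 transcripts were above 0 in some library. FPKM counts fragments per kilobase of transcript, relative to all fragments that a library mapped. The gene list was put together with earlier results on the same libraries known, among them the difference of Naa60 between the groups. The members were therefore in part chosen by the contrast described here, so that their differences are given as a description, with standard errors and no p-values.

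The libraries hold ribosome-associated RNA of adult male C57BL/6 mice, 3 libraries of Ctrl and 3 of Gsk3sKO. Mice of both groups were D2Cre/LSL-Flag-Cas9/RiboTag, so that the Drd2-driven Cre transgene turned on the Cas9 nuclease and a hemagglutinin-tagged Rpl22 ribosomal protein in the same cells. Ctrl mice received AAV GFP in the mPFC, without a guide RNA, and Gsk3sKO mice received AAV Gsk3sgRNA/GFP, whose guide RNA directs Cas9 to Gsk3b, the gene of glycogen synthase kinase 3 beta. Tissue was taken 3 weeks after injection. Expression of Cas9 and of the tag is limited to cells in which the Drd2 transgene is, or earlier was, active, and not every such cell need carry the virus. Neither the labels nor the methods say whether a library is 1 mouse or a pool, so the spread between libraries may be technical. The standard errors are those of the limma fit described below, in which the spread of each feature is drawn towards that of all features tested.

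N-terminal acetyltransferases transfer an acetyl group from acetyl-CoA to the first residue of a protein, in most cases while the protein is still being made on the ribosome. The enzymes differ in the N-termini they accept. NatA (catalytic Naa10, ribosome anchor Naa15) acts on small residues exposed after removal of methionine, and NatB (Naa20 and its partner Naa25) acts on methionine followed by an acidic or amide residue. NatC (Naa30 with Naa35 and Naa38) acts on methionine followed by a hydrophobic residue, and NatD (Naa40) acts on histones H2A and H4. NatE (Naa50) can join NatA, and NatF (Naa60) sits on the Golgi membrane and acts on transmembrane proteins whose N-terminus faces the cytosol. Most proteins of mammalian cells, neurons included, carry this modification.

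Some of the differences within the members lay between annotated transcripts of 1 gene. Some of the segments that tell transcripts of a gene apart are shown here, also for Naa20, whose transcripts overlapped between the groups. All are coding, on the + strand of GRCm38, and read from the spliced GENCODE M21 transcripts. Capitals mark the segment present in the first-named transcript and absent from the second, and lower-case letters are the spliced neighboring bases, up to 12 on each side. The Naa60 segment is exon 5 of 7 of Naa60-212, 50 bases at chr16:3900643-3900692. The long Naa50 segment is exon 3 of 5 of Naa50-201, 120 bases or 40 codons at chr16:44157074-44157193. The short Naa50 segment is 3 bases, 1 codon, at the start of exon 2 at chr16:44156410-44156412. The Naa20 segment is 30 bases, 10 codons, at the end of exon 3 of Naa20-201 at chr2:145911764-145911793. Longer noncoding differences of Naa60-205 and Naa50-202 are not shown but given below, and no coding segment tells Naa60-201 from Naa60-212.
Naa60-212 not Naa60-205: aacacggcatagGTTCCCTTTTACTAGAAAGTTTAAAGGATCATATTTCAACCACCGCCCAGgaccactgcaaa
Naa50-201 not Naa50-202: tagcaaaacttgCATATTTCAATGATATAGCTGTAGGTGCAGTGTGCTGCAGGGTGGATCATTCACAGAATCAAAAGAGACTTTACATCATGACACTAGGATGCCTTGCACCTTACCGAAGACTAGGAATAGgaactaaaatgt
Naa50-202 not Naa50-201: atgaaaggTAGccggatcgagct
Naa20-201 not Naa20-202: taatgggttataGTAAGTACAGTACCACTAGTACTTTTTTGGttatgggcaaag

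The depth behind the FPKM was put at about 28.8 to 47.0 M fragments per library from the spacing of low values, a rough estimate that can be off by a factor of 2. Total Gsk3b was 35.6, 53.8 and 56.5 FPKM in Ctrl replicates 1 to 3 and 36.9, 37.0 and 33.6 FPKM in Gsk3sKO replicates 1 to 3, so the library labelled Ctrl replicate 1 lay among the Gsk3sKO libraries. Its leading transcript, ENSMUST00000023507, was 33.5, 34.7 and 36.2 FPKM in Ctrl and 24.8, 21.6 and 21.2 FPKM in Gsk3sKO, with no overlap. Drd2, which defines the labelled cells, was present in all 6 libraries, at 1.58, 6.02 and 14.1 FPKM in Ctrl and 8.32, 5.96 and 7.28 FPKM in Gsk3sKO, lowest in Ctrl replicate 1. The summed markers of neurons (4 genes) ran from 1737 to 1992 FPKM, of excitatory neurons (3 genes) from 809 to 1012 and of inhibitory neurons (3 genes) from 168 to 342. Those of astrocytes (4 genes) ran from 39.7 to 56.8, of oligodendrocytes (4 genes) from 103 to 162, of microglia (4 genes) from 9.34 to 16.2 and of endothelial cells (4 genes) from 9.59 to 32.9 FPKM. The ranges of the Ctrl and Gsk3sKO libraries overlapped for each of these sums. Of these marker genes Mog of oligodendrocytes and C1qa of microglia had an unadjusted p under 0.05, both lower in Gsk3sKO, and Mog was listed at 0 in Gsk3sKO replicates 2 and 3. Of all tested transcripts 10.1%, 3.82% and 5.48% were listed at 0 in the Ctrl libraries, by replicate number, beside 5.93%, 11.8% and 13.0% for Gsk3sKO. The share was highest in Gsk3sKO replicates 2 and 3, with Ctrl replicate 1 next. Whether a 0 is a failed estimate was not tested. Of the 30 member transcripts tested, 5, 3 and 3 were listed at 0 in Ctrl and 3, 8 and 8 in Gsk3sKO. In tissue of this kind, fewer cells of a type and less RNA per cell cannot be told apart.

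In the Ctrl libraries the gene totals, which are sums over the transcripts of a gene, spanned from 27.9 ± 7.59 FPKM for Naa38 to 5.12 ± 1.08 FPKM for Naa40 (mean ± SD, n = 3). Between them stood Naa50 at 20.1 ± 3.36, Naa60 at 17.1 ± 2.57, Naa10 at 15.6 ± 3.92, Naa15 at 15.5 ± 1.58, Naa35 at 15.3 ± 0.770, Naa20 at 13.2 ± 1.95, Naa25 at 10.7 ± 3.91 and Naa30 at 8.13 ± 1.85 FPKM. Each neighbor in this order overlapped the next across the libraries, except Naa30, whose lowest library (6.44 FPKM) was above the highest of Naa40 (6.31 FPKM). The ratio of enzyme to large auxiliary subunit was 1.03 ± 0.350 for Naa10 to Naa15, 1.37 ± 0.613 for Naa20 to Naa25 and 0.535 ± 0.144 for Naa30 to Naa35 in Ctrl. In Gsk3sKO the same ratios were 0.758 ± 0.338, 1.20 ± 0.267 and 0.814 ± 0.458, and the libraries of the groups overlapped for each ratio. With transcripts weighted by length, the Ctrl ratios were 0.587 ± 0.223, 0.930 ± 0.286 and 0.517 ± 0.103. Those of Gsk3sKO were then 0.456 ± 0.0414, 0.832 ± 0.271 and 0.675 ± 0.288, again with overlap.

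Between the groups, Naa60 was the member whose gene total was higher in every Gsk3sKO library than in any Ctrl library, and Naa38 the member whose total was lower in every Gsk3sKO library. Of the 10 gene totals, 1 (Naa60) had an unadjusted p under 0.05 in the limma fit over all genes, against 6.56% of the 12874 gene totals tested. Groups that did not overlap were found for 2 of 10 members, against 12% of all gene totals. None of the 10 had an adjusted p under 0.05, and 0.0466% of all gene totals did. As the choice of members used this contrast, nothing is read from these counts. The median log2 fold change of the members was -0.15, with 4 of 10 above 0, beside a median of -0.06 over all gene totals tested.

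**Figure D1:**
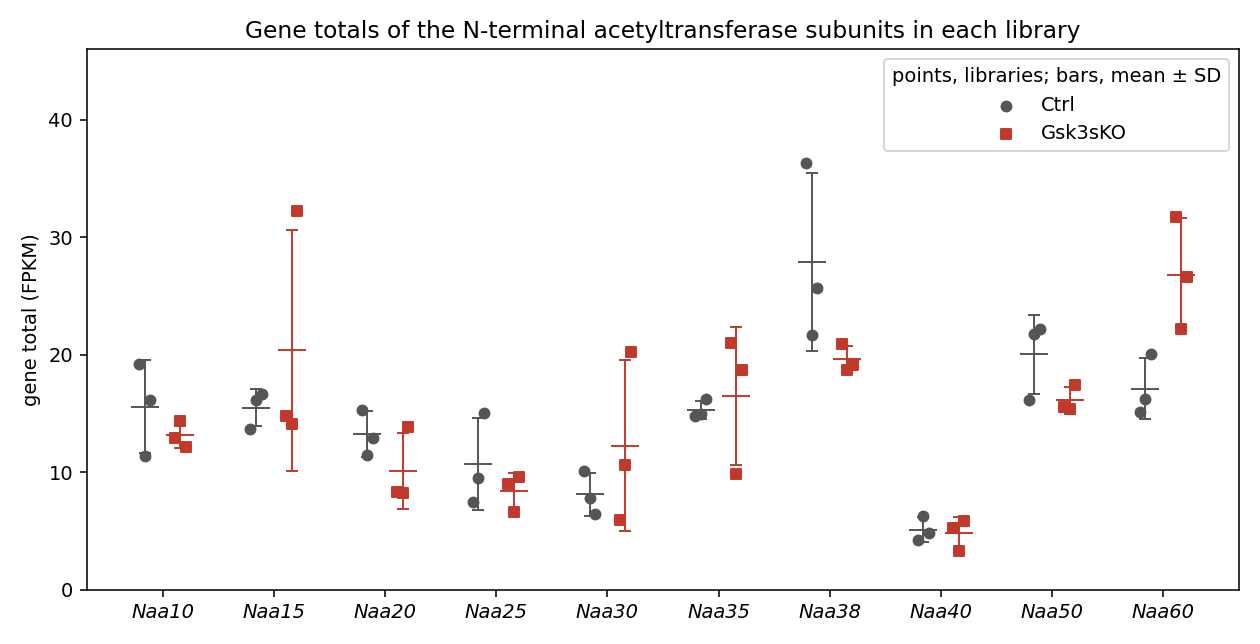
Gene totals in FPKM of the 10 members, with Ctrl libraries as grey circles, Gsk3sKO libraries as red squares, and the mean ± SD of each group as bars. Naa60 lies at 15.1 to 20.0 FPKM in Ctrl and 22.2 to 31.7 FPKM in Gsk3sKO, and the wide Gsk3sKO bars of Naa15 and Naa30 come from replicate 3.

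Naa60, the Golgi-bound enzyme of NatF (ENSMUSG00000005982, chr16:3872375-3904780, + strand), was 15.1, 16.2 and 20.0 FPKM in Ctrl replicates 1 to 3 and 31.7, 22.2 and 26.6 FPKM in Gsk3sKO replicates 1 to 3. All Gsk3sKO libraries stood above all Ctrl libraries, and the means were 17.1 ± 2.57 and 26.8 ± 4.78 FPKM (SD, n = 3), a ratio of 1.57. On the scale of log2(FPKM + 1) the difference was 0.61 with a standard error of 0.18. Without the library labelled Ctrl replicate 1 it was 0.53.

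A gene total that weights each transcript by its length, and so follows the number of fragments and not the number of short annotated pieces, set the groups further apart. On this scale Naa60 was 12.04, 11.0 and 14.1 in Ctrl and 28.8, 17.7 and 23.4 in Gsk3sKO, a ratio of means of 1.88 and a log2 difference of 0.84 with a standard error of 0.20. Of the 10 length-weighted totals 1, again Naa60, had an unadjusted p under 0.05, against 6.54% of all length-weighted totals tested.

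The higher Naa60 total lay in a pair of its 12 transcripts. Naa60-212 (ENSMUST00000186375), the protein-coding transcript of 2424 bases with a coding sequence of 726 bases, was 7.90, 5.31 and 9.47 FPKM in Ctrl and 22.7, 1.12 and 17.6 FPKM in Gsk3sKO. It was high in Gsk3sKO replicates 1 and 3 and lowest of all libraries in Gsk3sKO replicate 2. Naa60-201 (ENSMUST00000006138, 2350 bases) was 2.01, 0.0241 and 0.164 FPKM in Ctrl and 4.13, 14.8 and 4.53 FPKM in Gsk3sKO. This transcript was higher in every Gsk3sKO library, by 2.32 on the log2 scale with a standard error of 0.64, and highest where Naa60-212 was lowest.

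These transcripts are nearly the same RNA. Naa60-201 lies wholly within Naa60-212, with the same introns and the same coding sequence of 726 bases, and lacks only 64 bases at the 5′ end and 10 bases at the 3′ end. GENCODE M21 nevertheless lists Naa60-201 as a target of nonsense-mediated decay. Reads can be divided between the pair only by fragments that reach those ends, so their sum is the better-defined quantity. The sum was 9.90, 5.33 and 9.64 FPKM in Ctrl and 26.8, 15.9 and 22.1 FPKM in Gsk3sKO. The lowest Gsk3sKO library stood above the highest Ctrl library, with means of 8.29 ± 2.57 and 21.6 ± 5.48 FPKM, a ratio of 2.61 and a log2 difference of 1.296 with a standard error of 0.31. The pair made up 65.4%, 32.9% and 48.1% of the Naa60 total in Ctrl and 84.6%, 71.7% and 83.0% in Gsk3sKO.

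The other 10 Naa60 transcripts together were 5.24, 10.9 and 10.4 FPKM in Ctrl, and with 4.89, 6.28 and 4.52 FPKM in Gsk3sKO the groups overlapped at Ctrl replicate 1. This grouping was made after the values were seen. Among them, Naa60-205 (ENSMUST00000143537), annotated as a decay target that skips the 50-base exon shown above and has a coding sequence of 399 bases, was 1.57, 0.951 and 4.35 FPKM in Ctrl and 0.310 FPKM in Gsk3sKO replicate 1. It was listed at 0 in Gsk3sKO replicates 2 and 3, so all Gsk3sKO libraries were below all Ctrl libraries. Its log2 difference of -1.45 no longer passed an unadjusted p under 0.05 with the replicate block or without Gsk3sKO replicate 2 or 3 (-1.39 for each). A segment of 50 bases is not a whole number of codons, so its omission changes the reading frame. Naa60-205 also lacks 64 noncoding bases at the 5′ end and 1031 at the 3′ end of Naa60-212. Which of these differences set its value was not tested. Naa60-206 (ENSMUST00000147949), a short decay target of 653 bases, was listed at 0 in Ctrl replicate 1 and Gsk3sKO replicate 2 and otherwise lay between 2.44 and 3.57 FPKM. It had no direction between the groups. Naa60-202 (2303 bases), also with a coding sequence of 726 bases, was 3.22 FPKM in Ctrl replicate 2, where the pair was lowest. It was 0.806 FPKM in Gsk3sKO replicate 1 and listed at 0 elsewhere. Naa60-207 (1166 bases), with 726 coding bases as well, was 0.560, 0.459 and 2.45 FPKM in Ctrl and 0.269, 0.0201 and 0.788 FPKM in Gsk3sKO. The sum of the pair leaves both out.

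4 genes overlap the Naa60 locus. Zfp597, on the opposite strand, was 10.7, 6.96 and 7.53 FPKM in Ctrl and 11.2, 8.87 and 6.31 FPKM in Gsk3sKO, so it overlapped between the groups. Gm20695, Gm26675 and 1700037C18Rik were at most 1.07, 0.719 and 1.04 FPKM. The library kit keeps strand, but whether the reads were assigned by strand is not given in the sources used here, and the part of Zfp597 in the Naa60 total was not tested.

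**Figure D2:**
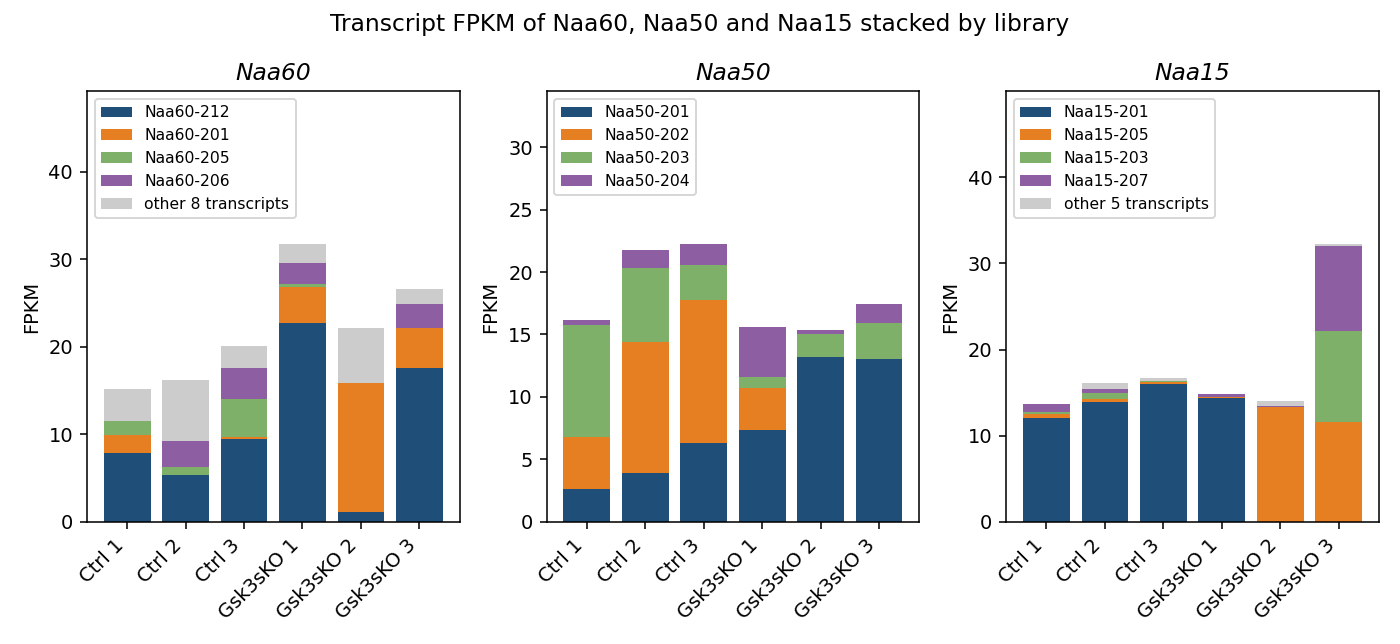
FPKM of the transcripts of Naa60, Naa50 and Naa15, stacked for each of the 3 Ctrl and 3 Gsk3sKO libraries, with each transcript named in the legend in its own color and the rest in grey. Naa60-212 and Naa60-201 fill most of the Gsk3sKO bars, Naa50-202 is absent from Gsk3sKO replicates 2 and 3, and Naa15 passes from Naa15-201 to Naa15-205 in those same libraries.

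Naa50, the enzyme of NatE (ENSMUSG00000022698, chr16:44139830-44163366, + strand), had a gene total of 16.2, 21.8 and 22.2 FPKM in Ctrl and 15.6, 15.4 and 17.5 FPKM in Gsk3sKO. The groups overlapped at Ctrl replicate 1, and the log2 difference of -0.29 had a standard error of 0.17. With length weighting the difference was -0.07 with a standard error of 0.15. While the total overlapped, its coding transcripts differed in opposite directions.

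Naa50-201 (ENSMUST00000063520) was 2.60, 3.88 and 6.27 FPKM in Ctrl and 7.34, 13.2 and 13.1 FPKM in Gsk3sKO, higher in every Gsk3sKO library. The log2 difference was 1.24 with a standard error of 0.37, and it no longer passed an unadjusted p under 0.05 without Gsk3sKO replicate 2 (1.10) or without Gsk3sKO replicate 3 (1.11). Naa50-202 (ENSMUST00000063542) was 4.20, 10.5 and 11.5 FPKM in Ctrl and 3.38 FPKM in Gsk3sKO replicate 1, and it was listed at 0 in Gsk3sKO replicates 2 and 3. It was lower in every Gsk3sKO library, though Ctrl replicate 1 and Gsk3sKO replicate 1 differed little. The share of tested transcripts listed at 0 was highest in Gsk3sKO replicates 2 and 3, as given above. Whether the values of 0 for Naa50-202 are failed estimates was not tested.

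Naa50-202 lacks the 120-base exon shown above and so has a coding sequence of 387 bases, beside 504 bases in Naa50-201. The exon holds a whole number of codons, so the frame continues after the skip. Naa50-202 also lacks 1298 noncoding bases at the 3′ end of Naa50-201, and which of these differences set its value was not tested. Naa50-201 in turn is alone among the 4 transcripts in lacking the 3 bases at the start of exon 2. Naa50-203 (ENSMUST00000159514), which has an added exon of 138 bases, was 8.98, 5.92 and 2.78 FPKM in Ctrl and 0.853, 1.79 and 2.83 FPKM in Gsk3sKO. It was lower by mean, with a log2 difference of -1.24 and a standard error of 0.49, but Ctrl replicate 3 and Gsk3sKO replicate 3 overlapped. Its unadjusted p was no longer under 0.05 with median-ratio scaling, with the replicate block, or without Ctrl replicate 1 (-0.92), Ctrl replicate 2 (-1.18), Gsk3sKO replicate 1 (-0.97) or Gsk3sKO replicate 2 (-1.26). Naa50-204 (ENSMUST00000161326) ran from 0.368 to 3.98 FPKM with no direction.

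The share of the Naa50 total given by Naa50-201 was 16.1%, 17.8% and 28.2% in Ctrl and 47.2%, 86.0% and 74.8% in Gsk3sKO, and the groups did not overlap. Naa50-202 gave 25.9%, 48.4% and 51.7% in Ctrl and 21.8% in Gsk3sKO replicate 1. The 3 transcripts that hold the 120-base exon summed to 11.995, 11.2 and 10.7 FPKM in Ctrl and 12.2, 15.4 and 17.5 FPKM in Gsk3sKO, a grouping made after the values were seen. The Gsk3sKO libraries were above the Ctrl libraries, replicate 1 by little.

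**Figure D3:**
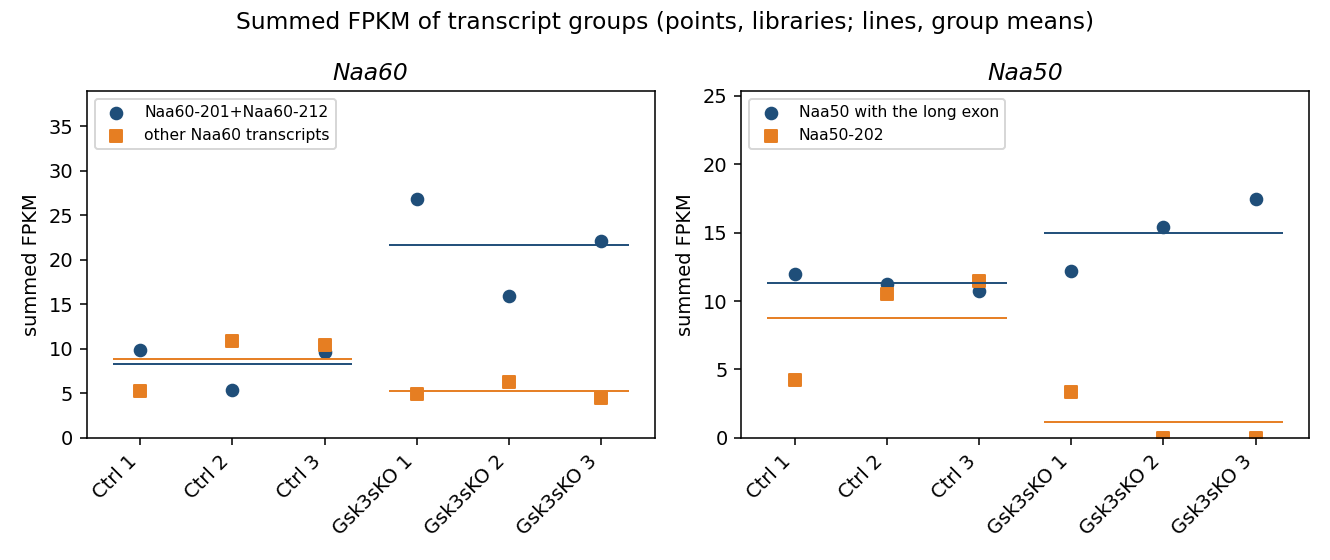
Summed FPKM per library for Naa60 (left: Naa60-201 with Naa60-212, and the other 10 transcripts) and Naa50 (right: the 3 transcripts with the 120-base exon, and Naa50-202 without it), with lines at the group means. The Naa60 pair separates the groups at 5.33 to 9.90 FPKM in Ctrl and 15.9 to 26.8 FPKM in Gsk3sKO, while the remaining transcripts overlap.

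Of the 30 member transcripts tested, 5 had an unadjusted p under 0.05, against 5.56% of the 21584 transcripts tested. These were Naa60-201 and Naa50-201, higher in Gsk3sKO, and Naa60-205, Naa50-202 and Naa50-203, lower. Groups did not overlap for 5 of 30, against 11.2% of all transcripts, namely Naa60-201, Naa60-205, Naa50-201, Naa50-202 and Naa38-203. With transcripts of identical introns summed, 5 of 28 had an unadjusted p under 0.05, against 5.49% of all such sums. By limma with Benjamini-Hochberg adjustment, none of the 30 and none of all transcripts had an adjusted p under 0.05 (background 0%). The choice of members used this contrast here too, and nothing is read from the counts.

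NatA showed no difference beyond the spread of the libraries. Naa10, its enzyme (ENSMUSG00000031388, chrX:73916873-73921944, - strand), was 19.2, 11.4 and 16.2 FPKM in Ctrl and 13.0, 14.4 and 12.2 FPKM in Gsk3sKO. The Gsk3sKO libraries fell within the Ctrl range, and the log2 difference of -0.20 had a standard error of 0.21. Its leading transcript, Naa10-201 (ENSMUST00000033763), ranged from 3.74 to 11.5 FPKM in Ctrl and from 2.48 to 9.41 FPKM in Gsk3sKO. Naa10-204 (ENSMUST00000114389) ranged from 2.34 to 6.13 FPKM over the 6 libraries. It has 91 coding bases that Naa10-201 lacks and lacks 121 that Naa10-201 has, with a coding sequence of 675 beside 705 bases. Naa10-202 and Naa10-205, both coding, stayed at or under 2.39 FPKM, and each overlapped between the groups.

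Naa15, the ribosome anchor of NatA (ENSMUSG00000063273, chr3:51415148-51476507, + strand), was 13.7, 16.1 and 16.7 FPKM in Ctrl and 14.8, 14.1 and 32.2 FPKM in Gsk3sKO. Gsk3sKO replicate 3 alone stood high. The excess lay in short transcripts, Naa15-203 (ENSMUST00000192419, 637 bases) at 10.6 FPKM and the retained-intron transcript Naa15-207 (ENSMUST00000193694, 667 bases) at 9.85 FPKM, both at most 0.933 FPKM in every other library. Weighted by length, Naa15 was 10.4, 12.02 and 13.3 in Ctrl and 11.9, 13.5 and 13.4 in Gsk3sKO, and the high library was gone.

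The full-length transcripts of Naa15 changed places. Naa15-201 (ENSMUST00000029303) was 12.02, 13.9 and 16.0 FPKM in Ctrl and 14.3 FPKM in Gsk3sKO replicate 1, and it was listed at 0 in Gsk3sKO replicates 2 and 3. Naa15-205 (ENSMUST00000193266) was 0.456, 0.341 and 0.212 FPKM in Ctrl and 0.173, 13.3 and 11.5 FPKM in Gsk3sKO. The annotated coding sequence is 2595 bases in Naa15-201 and 2445 bases in Naa15-205, where 150 of the Naa15-201 coding bases are noncoding. The transcripts share every intron, and the 6090 bases of Naa15-201 all lie in Naa15-205, which has 868 further bases at the 5′ end and 522 at the 3′ end. Their sum was 12.5, 14.3 and 16.2 FPKM in Ctrl and 14.5, 13.3 and 11.5 FPKM in Gsk3sKO, with a log2 difference of -0.12 and a standard error of 0.19. The exchange was therefore absent from the summed RNA and was seen in 2 of 3 Gsk3sKO libraries, the same in which the share of tested transcripts listed at 0 was highest.

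NatB gave lower means in Gsk3sKO with overlap. Naa20, its enzyme (ENSMUSG00000002728, chr2:145902099-145916425, + strand), was 15.3, 11.5 and 12.9 FPKM in Ctrl and 8.31, 8.25 and 13.9 FPKM in Gsk3sKO. Gsk3sKO replicates 1 and 2 lay below all Ctrl libraries and replicate 3 among them. The log2 difference was -0.38 with a standard error of 0.23. Naa20-202 (ENSMUST00000110000), which lacks the 10 codons shown above, was 12.3, 9.37 and 11.9 FPKM in Ctrl and 6.09, 2.06 and 13.2 FPKM in Gsk3sKO. Naa20-201 (ENSMUST00000002805), which has them, was 3.05, 0.0939 and 0.665 FPKM in Ctrl and 1.10, 6.16 and 0.248 FPKM in Gsk3sKO. The shorter coding form was the more abundant in 5 of 6 libraries, the exception being Gsk3sKO replicate 2.

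Naa25, the partner of Naa20 (ENSMUSG00000042719, chr5:121397936-121444378, + strand), was 7.48, 9.55 and 15.0 FPKM in Ctrl and 9.03, 6.64 and 9.57 FPKM in Gsk3sKO, with a log2 difference of -0.28 and a standard error of 0.27. Ctrl replicate 3 alone stood high, where the decay-target transcript Naa25-205 (ENSMUST00000173895) was 8.24 FPKM and was listed at 0 in the other 5 libraries. The full coding transcript Naa25-201 (ENSMUST00000042163) was 7.37, 7.09 and 4.77 FPKM in Ctrl and 8.54, 2.53 and 9.57 FPKM in Gsk3sKO, so the groups overlapped.

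NatC held Naa38, a small auxiliary subunit of the LSM fold with the highest mean of the members in Ctrl but not in Gsk3sKO (ENSMUSG00000059278, chr11:69395487-69396680, + strand). It was 36.4, 21.7 and 25.7 FPKM in Ctrl and 20.9, 18.7 and 19.1 FPKM in Gsk3sKO. All Gsk3sKO libraries were below all Ctrl libraries, the nearest pair by less than 1 FPKM, and the log2 difference of -0.46 with a standard error of 0.20 did not reach an unadjusted p under 0.05. With length weighting it was 27.9, 18.2 and 22.6 in Ctrl and 17.0, 17.2 and 16.8 in Gsk3sKO, again without overlap and again short of the threshold.

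The coding transcript of Naa38 overlapped between the groups. Naa38-204 (ENSMUST00000144531), with 375 coding bases, was 15.2, 11.0 and 18.4 FPKM in Ctrl and 11.4, 14.9 and 13.3 FPKM in Gsk3sKO, with means of 14.9 and 13.2 FPKM and a log2 difference of -0.14. The 3 noncoding processed transcripts gave 58.1%, 49.0% and 28.1% of the total in Ctrl and 45.8%, 20.3% and 30.4% in Gsk3sKO. Of these, Naa38-203 (ENSMUST00000142126) was 4.58, 1.17 and 2.48 FPKM in Ctrl and 1.07 and 0.747 FPKM in Gsk3sKO replicates 1 and 2 and listed at 0 in replicate 3, below Ctrl in every library. Naa38-201 (ENSMUST00000082283) was seen in Ctrl replicates 1 and 2 only, at 1.95 and 4.47 FPKM. Naa38-202 (ENSMUST00000124932) was 14.6, 4.98 and 4.73 FPKM in Ctrl and 8.52, 3.06 and 5.82 FPKM in Gsk3sKO. Cyb5d1 and Tmem88 overlap Naa38 on the opposite strand, and Cyb5d1, at 15.9 to 38.7 FPKM, was as abundant as Naa38 itself.

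Naa30, the enzyme of NatC (ENSMUSG00000036282, chr14:49172226-49191031, + strand), was 10.1, 7.84 and 6.44 FPKM in Ctrl and 5.97, 10.6 and 20.3 FPKM in Gsk3sKO. The Gsk3sKO libraries lay on both sides of the Ctrl libraries, and the log2 difference of 0.41 had a standard error of 0.38. Its retained-intron transcript Naa30-204 (ENSMUST00000138478) was 2.01, 2.23 and 0.147 FPKM in Ctrl and 1.21, 4.57 and 17.3 FPKM in Gsk3sKO, and it made most of the high total of Gsk3sKO replicate 3. The coding transcript Naa30-205 (ENSMUST00000153488) was 6.27, 5.28 and 5.93 FPKM in Ctrl and 4.34, 6.02 and 2.68 FPKM in Gsk3sKO, so in replicate 3 the coding form was at its lowest while the total was at its highest.

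Naa35, the large auxiliary subunit of NatC (ENSMUSG00000021555, chr13:59585259-59635922, + strand), was 14.8, 15.0 and 16.2 FPKM in Ctrl and 21.0, 9.87 and 18.7 FPKM in Gsk3sKO. The Gsk3sKO libraries spread to both sides of Ctrl, with a log2 difference of 0.04 that became -0.13 with length weighting. In Gsk3sKO replicate 1 the short transcript Naa35-208 (779 bases) was 6.13 FPKM, 29.2% of the total, and it was listed at 0 elsewhere. In Gsk3sKO replicate 3 the retained-intron transcript Naa35-213 (526 bases) was 5.11 FPKM, 27.2% of the total, and it was at most 0.296 FPKM elsewhere. The leading coding transcript of the gene, Naa35-201 (ENSMUST00000022038), was 13.0, 13.3 and 14.1 FPKM in Ctrl and 13.5, 9.39 and 13.1 FPKM in Gsk3sKO.

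Naa40, the histone enzyme of NatD (ENSMUSG00000024764, chr19:7225668-7241183, - strand), has 1 listed transcript, so no division of reads between transcripts entered its value. It was 4.20, 6.31 and 4.84 FPKM in Ctrl and 5.28, 3.28 and 5.88 FPKM in Gsk3sKO. The groups overlapped, with a log2 difference of -0.09 and a standard error of 0.27.

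**Figure D4:**
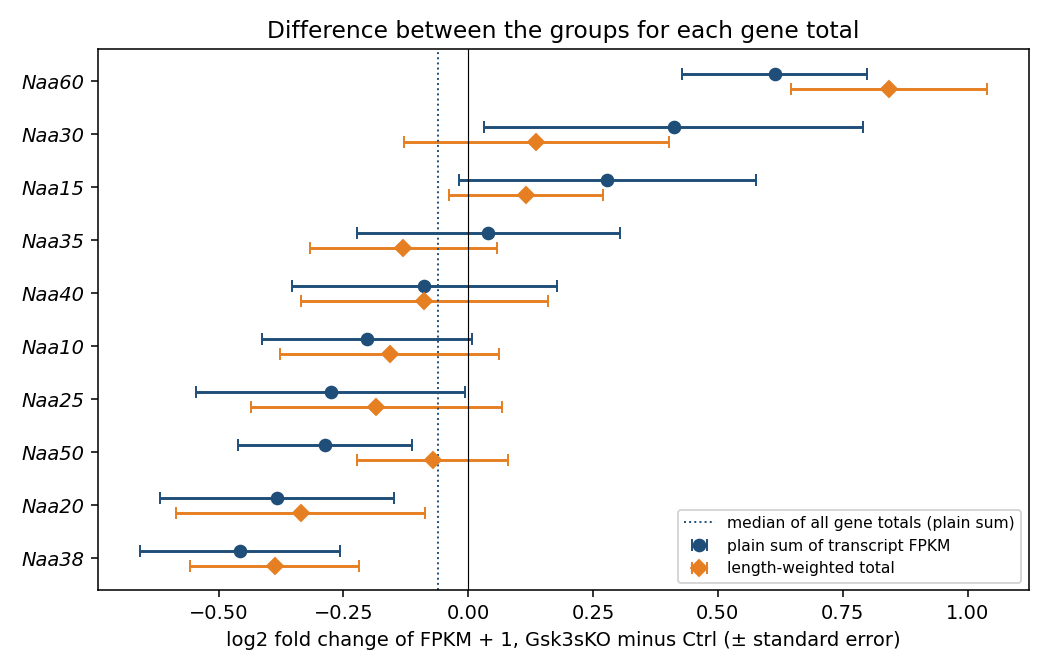
Log2 fold change of FPKM + 1, Gsk3sKO minus Ctrl, with its standard error for each member, as the plain sum of transcripts (blue circles) and as the length-weighted total (orange diamonds); the dotted line is the median of all gene totals. Naa60 is highest on both scales, at 0.61 and 0.84, though its plain-sum bar overlaps that of Naa30. The values of Naa30, Naa15 and Naa50 come closer to 0 when transcripts are weighted by length.

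Beyond the members, 27 other genes of N-terminal protein processing were listed, from methionine removal, deformylation, myristoylation and N-terminal methylation to the N-degron pathways and acetyl-CoA supply. Of the 25 tested as gene totals in the limma fit, 0 were higher and 0 lower at an unadjusted p under 0.05. Over all gene totals tested, 6.56% were called in either direction. The groups did not overlap for 1 of the 25, beside 12% of all gene totals. This was Nmt1, an N-myristoyltransferase, at 52.8, 53.3 and 51.9 FPKM in Ctrl and 50.6, 37.8 and 44.5 FPKM in Gsk3sKO. The median log2 fold change of the list was -0.02, from -0.79 to 0.48, with 12 above 0. Leaving out the library labelled Ctrl replicate 1 gave 1 called gene (Ate1, the arginyltransferase of an N-degron pathway), and leaving out Ctrl replicate 3 gave 2 (Hypk and the ubiquitin ligase Marchf6). The share of all gene totals called in those fits is not given here, and nothing is read from these calls.

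The remaining subunits of N-terminal acetylation were uneven. Hypk, the small protein that binds and restrains NatA, was 47.3, 37.6 and 6.93 FPKM in Ctrl and 23.7, 9.37 and 25.8 FPKM in Gsk3sKO. Naa16, the close relative of Naa15, was 0.678, 2.33 and 1.07 FPKM in Ctrl and 2.24, 2.18 and 2.05 FPKM in Gsk3sKO. Naa80, listed under its older symbol Nat6, which acetylates mature actin, was 2.78, 3.40 and 3.26 FPKM in Ctrl and 3.37, 2.94 and 1.05 FPKM in Gsk3sKO. All 3 overlapped between the groups. Naa11, the close relative of Naa10, was at most 0.0542 FPKM and was not tested.

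Promoter sequences of some members were described without a test. RefSeq windows of 300 bases around the gene start (GRCm38.p6) were found for 8 of the 10 genes, not for Naa25 and Naa38, and gave 10 windows, since Naa35 and Naa50 have more than 1 each. Their GC content ran from 55.3% (Naa20) to 73.3% (Naa30) with a median of 68.2%, beside a median of 52.7% over 32851 windows of all genes. They held a median of 32 CpG dinucleotides, beside 7 over all windows. GGGCGG on either strand was found in 8 of the 10 windows, of 6 of the 8 genes (not Naa15 and Naa20), and in 35.7% of all windows, and TATAAA on either strand in 0 of the 10 and in 13.6% of all windows.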

How the data were processed

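Ribosome-associated RNA was measured by stranded RNAseq in 3 Ctrl and 3 Gsk3sKO libraries, grouped by their labels. The authors deposited FPKM values for 115220 transcripts. The submitters' processing notes name HISAT2 2.1.0, SAMtools 1.9, StringTie 1.3.4d and the GRCm38 build. Settings, strand options and annotation release were not given in the sources used here. StringTie divides reads between overlapping transcripts by estimate, so a rise of 1 transcript can come with a fall of another. The authors' own fold changes, p-values and q-values were not used. Every per-library column was analysed (0 omitted).

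FPKM were summed by gene identifier. Length-weighted totals, added after the data were seen, multiply FPKM by transcript length, sum by gene and divide by the longest listed transcript. Structures came from GENCODE M21, in which 114237 transcripts were found and 983 were not. Differences were fitted with limma 3.58.1 (lmFit, eBayes with trend) in R 4.3.3 on log2(FPKM + 1) over all features with a mean FPKM of at least 1, without covariates. The fold changes understate differences of low features. Tests were 2-sided with Benjamini-Hochberg adjustment over all features, and a call is an unadjusted p under 0.05. The fit was tested on simulated data. Python 3.11.15 was used for tables and plots (pandas 2.3.3, numpy 2.4.6, matplotlib 3.10.9).

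The members and all gene lists were chosen with earlier results of these data known. Named were all members, those of their transcripts whose mean FPKM reached 1 and which had either a mean share of at least 10% of the gene total in a group or an absolute log2 fold change of at least 1 (28 transcripts), called genes of the processing list, and Hypk, Naa11, Naa16 and Naa80. Alternatives were a pseudocount of 0.1, no filter, a mean FPKM of at least 5, median-ratio scaling, a replicate block, and leaving out each library.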

Additional observations from a re-analysis of the deposited data

How the results depend on the processing

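The gene total of Naa60 kept its direction and an unadjusted p under 0.05 in each of the alternatives run. Its log2 fold change was 0.49 to 0.74 when 1 library was left out, and 0.84 with length-weighted totals. The number of member gene totals called, 1 as reported, was 2 with a mean FPKM of at least 5 (Naa38 added, 9 genes tested), 2 with the replicate block (Naa38 added), and 1 to 2 when 1 library was left out. The second gene was Naa50 without Ctrl replicate 1, Naa38 without Ctrl replicate 2, Naa30 without Gsk3sKO replicate 1 and Naa20 without Gsk3sKO replicate 3. The number of member transcripts called, 5 as reported, was 1 with a mean FPKM of at least 5 (10 transcripts tested), 3 with the replicate block (Naa50-201, Naa50-202 and Naa60-201), and 3 to 7 when 1 library was left out, with 3 without Gsk3sKO replicate 2. The number of genes called in the list of N-terminal processing, 0 as reported, was 0 to 2 when 1 library was left out. The shares of all features called in these alternatives are not given here, and nothing is read from the counts. The labels do not say whether libraries of the same replicate number were paired. Same-numbered libraries had correlations of their deviations of -0.0274, -0.0108 and -0.0809, and no library correlated best with its own number. With so few libraries these values cannot decide whether a pairing existed. Of 37 log2 fold changes of member totals (other than Naa60) and transcripts, 16 had the opposite sign in some alternative, and none of these 16 had been called. They include the totals of Naa15, Naa30, Naa35 and Naa40, and Naa60-212. Of the 5 called transcripts, Naa60-201 and Naa50-202 kept an unadjusted p under 0.05 in every alternative that tested them. Naa50-203 lost it with median-ratio scaling (-1.19). Of the 342 other comparisons of a value with an alternative, 9 moved by more than the spread between replicates, among them Naa50 with length weighting and low transcripts with the pseudocount of 0.1. Depth is known only roughly, and FPKM without counts give no counting error for a value.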
